A study of Rattus norvegicus with 294 samples.

Results

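Gene expression was compared in osteoblasts of rats 126 days after the last dosing day of a sclerostin antibody. The arrays were chosen by their labelled cell type (osteoblast) and day (309) from the series' 97 osteoblast, 97 osteocyte and 100 lining cell arrays, which gave 10: 5 from vehicle rats (labelled Negative Control) and 5 from rats given the antibody (labelled Scl-Ab, 50 mg/kg). All rats were female Sprague-Dawley rats that were ovariectomized at 6 months of age and then left 8 weeks without treatment. They received vehicle (Tween 20, sucrose and sodium acetate in both groups) or 50 mg/kg of the antibody by weekly injection under the skin until day 183, and no dose between day 183 and day 309. Calcein was given to both groups shortly before death to mark bone surfaces that were forming. Cells were cut by laser from frozen sections of lumbar vertebra 3 of the first 5 rats of a group, and their amplified RNA was hybridized to Affymetrix rat arrays. The array labels do not name the rat, so the p-values measure the spread between arrays. The arrays of a group are numbered 1 to 5, and a number names an array without pairing it with one of the other group.

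Sclerostin is secreted by osteocytes, binds the Wnt co-receptors Lrp5 and Lrp6, and holds back bone formation. An antibody against it lets Wnt signalling in bone cells rise, so that osteoblasts deposit more matrix while osteoclasts, the cells that resorb bone, become fewer or less active for a time. Osteoblasts line the forming surface, secrete type I collagen and the proteins that mineralize it, and control osteoclasts through secreted and surface factors. When such treatment ends, formation and resorption markers usually move back toward or past their earlier levels, which is the period sampled on day 309.

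Array level differences came first, since every gene rests on them. The signal range of an array, here the 90th minus the 50th percentile of its log2 values, was 3.35, 3.19, 2.69, 2.88 and 3.30 in vehicle arrays 1 to 5. It was 3.44, 3.43, 3.67, 3.21 and 3.29 in treated arrays 1 to 5. Vehicle arrays 3 and 4 were the narrowest and treated array 3 the widest, and the groups overlapped through vehicle arrays 1 and 5. The means were 3.08 ± 0.29 and 3.41 ± 0.17 (SD, n = 5), a difference of 0.33 (exact two-sided permutation test over all assignments, p = 0.0635, where the smallest possible p is 0.00794). The array median differed too, 3.57 in vehicle and 3.51 in treated arrays (exact permutation p = 0.0397). The differences below are on the scale of the deposited values. Each call of day 309 is also given after quantile normalization, which gives all arrays the same range, either for the gene or for its list.

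Marker genes showed osteoblast RNA in all 10 arrays, together with RNA of neighbouring cells. Type I collagen chains Col1a1 and Col1a2 were at 10.45 ± 0.41 and 11.63 ± 0.34 on the log2 scale in vehicle arrays (SD, n = 5), and bone sialoprotein and osteocalcin (Ibsp, Bglap) were above the array median on all 10 arrays. Of 15 osteoblast markers 12 had a listed probe set and all 12 passed the filter, while the transcription factors Sp7 and Runx2 had none. Sost, the sclerostin gene of osteocytes, stood above the array median on none of the 10 arrays with either of its probe sets. Erythroid markers averaged 9.14 in vehicle and 9.31 in treated arrays (16 genes, exact permutation p = 0.167), and granulocyte markers 9.47 and 9.56 (11 genes, exact permutation p = 0.548). Marrow RNA was thus present in both groups, and with a marrow score as covariate 447 genes passed (352 higher, 95 lower) in the comparison below. In captured material of this kind, fewer cells of a type and less RNA per cell cannot be told apart.

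On the deposited scale 1205 of 11420 genes tested differed between the groups (10.6%, limma with Benjamini-Hochberg adjusted p under 0.05, spread shared over 97 osteoblast arrays in 20 groups). Of these, 986 were higher (8.63%) and 219 lower (1.92%) in treated arrays, and 3098 genes had an unadjusted p under 0.05. The median log2 difference over all genes was 0.10 and 63.3% of genes were above 0, so that values are to be read against this shift. After quantile normalization of the 97 arrays the median was 0.00, and 574 genes passed (5.03%), 311 higher (2.72%) and 263 lower (2.3%). The same scaling kept 306 of the 986 higher calls and 180 of the 219 lower calls, and 1203 of the 1205 genes kept their sign. The split of higher to lower calls thus moved with the scaling, and it was 1375 to 165 when each array was only centred on its median.

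The 10 arrays fitted alone gave far fewer calls. Quantile normalized among themselves and tested without the other groups, they gave 7 genes of 9660 (0.0725%), 4 higher (0.0414%) and 3 lower (0.0311%), although 2100 genes had an unadjusted p under 0.05 and 526 an adjusted p under 0.1. On the deposited scale the same 10 arrays alone gave 21 calls. The 5 treated values lay entirely above or entirely below the 5 vehicle values in 506 genes (4.43%), 374 of them higher (3.27%) and 132 lower (1.16%), and in 429 of 9660 genes (4.44%) after quantile normalization of the 10 arrays, 231 higher (2.39%) and 198 lower (2.05%).

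The calls depended on a few arrays. Leaving out vehicle array 3 left 144 calls, leaving out vehicle array 4 left 334, and leaving out treated array 3 left 241, while leaving out vehicle array 1 gave 1834. With vehicle arrays 3 and 4 both left out, or with the signal range as a covariate, no gene passed on the deposited scale (1060 and 1114 genes with unadjusted p under 0.05 by limma). The first setting also leaves fewer vehicle arrays. In the second, the covariate differed between the groups (means 3.08 and 3.41), so its part and that of treatment cannot be told apart. The 68 genes named below that passed on the deposited scale kept their direction under every alternative run, and none kept its call under these last settings.

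**Figure D1:**
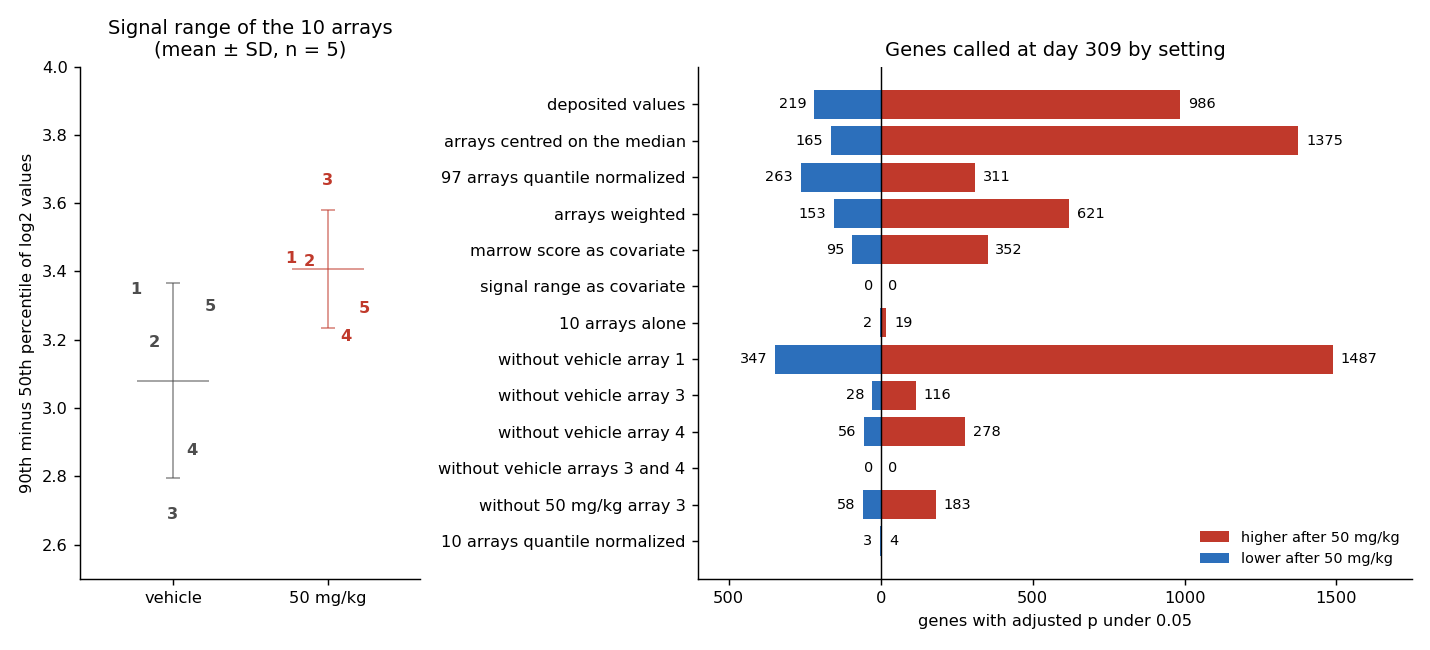
Left, the signal range (90th minus 50th percentile of log2 values) of each of the 10 arrays, shown by array number, with the mean and SD of each group (n = 5). Right, the number of genes with adjusted p under 0.05 that were higher (red, to the right) or lower (blue, to the left) after 50 mg/kg under each setting, from 986 and 219 on the deposited scale to 0 and 0 with the signal range as covariate.

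In all, 7 genes passed in the 10 quantile-normalized arrays alone, and 6 of them also passed on the deposited scale. Selenop, the plasma selenium transport protein, was at 5.97, 5.63, 5.41, 5.65 and 5.72 in vehicle arrays and at 7.05, 7.48, 7.22, 6.73 and 6.48 in treated arrays. Every treated array lay above every vehicle array, and Selenop rose by 1.32 ± 0.24 on the log2 scale (SE, limma adjusted p = 0.00075) and by 1.07 in the 10 quantile-normalized arrays (adjusted p = 0.0148). Without vehicle arrays 3 and 4 its difference was 1.22 (adjusted p = 0.0714). The other probe set listed for Selenop differed by -0.05 and was above the array median on none of the 10 arrays.

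Cpe, carboxypeptidase E, which trims peptide hormones in secretory granules, was at 6.61, 6.64, 5.66, 5.64 and 6.54 in vehicle arrays and at 8.20, 7.29, 7.60, 7.45 and 7.33 in treated arrays. The groups did not overlap, with the lowest vehicle values on arrays 3 and 4. The rise of Cpe was 1.36 ± 0.36 (adjusted p = 0.01) and 1.12 in the 10 quantile-normalized arrays (adjusted p = 0.0435), and it missed the threshold without vehicle array 3 (adjusted p = 0.0687), without vehicle array 4 (adjusted p = 0.0559) and with the 97 arrays quantile normalized (adjusted p = 0.0587). Emcn, endomucin, a surface protein of the vessel endothelium of bone, was at 4.60, 4.43, 3.98, 4.06 and 4.64 in vehicle arrays and at 5.47, 5.57, 5.61, 5.14 and 5.14 in treated arrays. Again no value was shared, and Emcn rose by 1.04 ± 0.27 (adjusted p = 0.0104) and by 0.98 in the 10 quantile-normalized arrays (adjusted p = 0.0254). It was not called without vehicle array 3 (adjusted p = 0.0668) or without treated array 3 (adjusted p = 0.0516). The other gene of the 4, Ccn2, is described with the Wnt target genes.

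The 3 other genes were lower. Pcbp3, a protein that binds poly(C) stretches in RNA, was at 7.97, 7.54, 7.15, 7.55 and 7.47 in vehicle arrays and at 6.86, 6.29, 6.82, 6.71 and 6.66 in treated arrays. The groups were apart on every array, and Pcbp3 fell by 0.87 on the log2 scale (SE 0.24, adjusted p = 0.0138). It fell by 1.13 in the 10 quantile-normalized arrays (adjusted p = 0.00552), and without treated array 2 its adjusted p was 0.0551. The other probe sets listed for Pcbp3 differed by 0.14 and -0.25. They were above the array median on none of the 10 arrays. Bcl6b, a zinc finger repressor related to Bcl6, was at 7.10, 6.96, 7.48, 6.80 and 7.24 in vehicle arrays and at 5.89, 4.85, 6.15, 5.21 and 5.61 in treated arrays. That probe set put all treated values below all vehicle values, at -1.57 ± 0.33 (adjusted p = 0.00187), but the 3 other probe sets listed for Bcl6b differed by -0.00, 0.04 and -0.30, so the gene's probe sets disagreed. Mzb1, an endoplasmic reticulum protein of plasma cells and marginal zone B cells, differed by -0.96 in the 10 quantile-normalized arrays (adjusted p = 0.0204), and on the deposited scale its difference of -0.68 did not pass (adjusted p = 0.107).

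**Figure D2:**
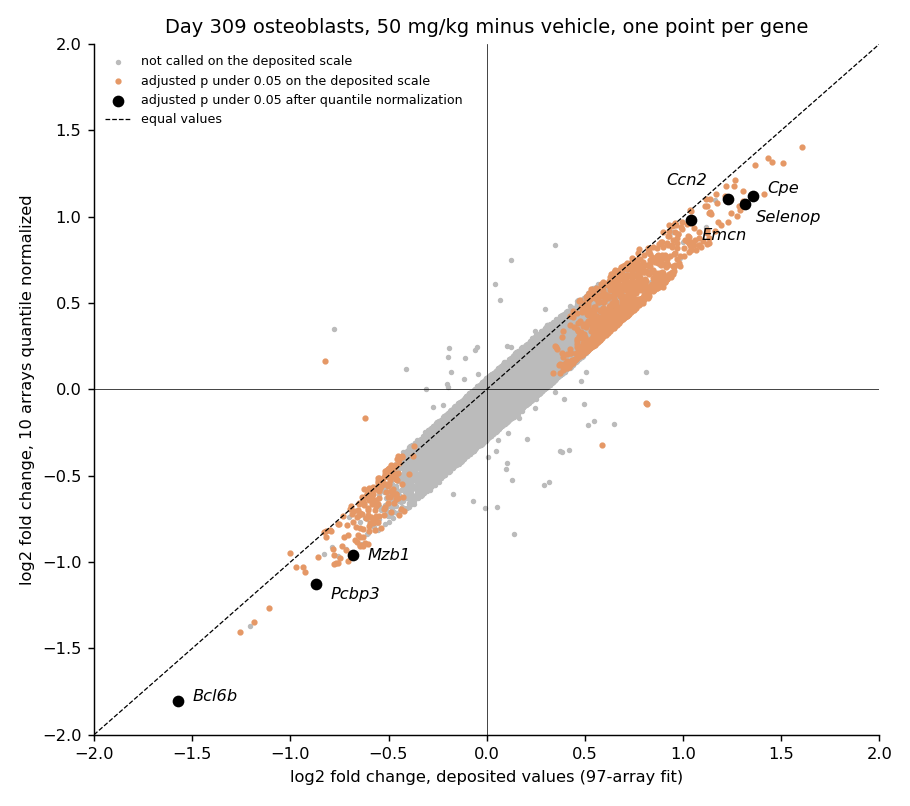
Each point is a gene, with its log2 fold change (50 mg/kg minus vehicle) from the deposited values on the horizontal axis and from the 10 quantile-normalized arrays on the vertical axis; the dashed line marks equal values. The 7 named genes (black) passed in the quantile-normalized fit. The probe set of highest mean was chosen in each fit, so a gene far from the line can have another probe set on each axis.

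Of 10 osteoclast markers tested, 2 rose, both enzymes of resorption. Acp5, tartrate-resistant acid phosphatase, was at 8.74, 9.35, 8.45, 8.70 and 9.94 in vehicle arrays and at 10.34, 10.36, 10.55, 10.28 and 9.78 in treated arrays. Only vehicle array 5 reached the range of the treated arrays, and Acp5 rose by 1.23 ± 0.28 (SE, adjusted p = 0.00321), with 0.91 after quantile normalization of the 97 arrays (adjusted p = 0.0327) and 0.97 in the 10 alone (adjusted p = 0.0572). Ctsk, cathepsin K, the protease that digests type I collagen in the resorption pit, was at 10.70, 11.50, 11.09, 10.69 and 11.84 in vehicle arrays and at 12.48, 11.996, 12.31, 12.18 and 12.002 in treated arrays. All treated arrays lay above all vehicle arrays, and Ctsk rose by 1.03 ± 0.29 (adjusted p = 0.0143), with 0.93 after quantile normalization of the 97 arrays (adjusted p = 0.0375). Its call was lost without vehicle array 3 (adjusted p = 0.0652), vehicle array 4 (0.0733) or treated array 3 (0.0592), at differences between 0.91 and 1.01.

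Mmp13, collagenase 3, which in bone is made mainly by osteoblasts and hypertrophic chondrocytes and cuts fibrillar collagen, stood beside these in the values. It was at 7.48, 8.38, 7.89, 7.39 and 8.19 in vehicle arrays and at 8.97, 9.02, 9.40, 8.49 and 9.12 in treated arrays. The lowest treated value was above the highest vehicle value, and Mmp13 rose by 1.13 ± 0.26 (adjusted p = 0.0035), by 0.80 after quantile normalization of the 97 arrays (adjusted p = 0.0441), and kept its call with each single array left out. Mmp13 was named after its values were seen.

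Over the whole list of osteoclast markers, Acp5 and Ctsk were 2 of 10 tested genes called higher and none was lower, on a background of 8.63% called higher among all genes. Their median difference was 0.21 against 0.10 for all genes, and after quantile normalization 0.05 against 0.00 with the same 2 genes called. The mean level of the 10 genes ran from 7.30 to 7.89 in vehicle arrays and from 7.79 to 8.06 in treated arrays. The means were 7.52 and 7.90 (exact two-sided permutation p = 0.0238, adjusted over 13 marker lists 0.165). The difference of 0.38 became 0.21 after quantile normalization of all osteoblast arrays (exact permutation p = 0.0317, adjusted 0.206). Skeletal muscle markers gave the smallest of these p on that scale, with a difference of -0.15 (exact permutation p = 0.0238, adjusted 0.206).

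The 250 bases before the RefSeq transcription start (build GRCr8) are shown for the collagen-degrading enzymes Ctsk and Mmp13 and for Ccn2, the Wnt and Hippo pathway target that passed in both fits, so that their different starts can be seen side by side. Capitals mark matches on either strand to GGAATG (TEAD), TGANTCA (AP-1), AACCACA (RUNX), CATGTG (a form of the E-box) or TATAAA (bound by TBP). These occur in 12.1%, 6.34%, 4.59%, 12.1% and 12.9% of 33469 such windows of all genes in the table. Ctsk lies at chr2:185747298-185747547 (+), Mmp13 at chr8:12782579-12782828 (+) and Ccn2 at chr1:22624615-22624864 (-).
Ctsk: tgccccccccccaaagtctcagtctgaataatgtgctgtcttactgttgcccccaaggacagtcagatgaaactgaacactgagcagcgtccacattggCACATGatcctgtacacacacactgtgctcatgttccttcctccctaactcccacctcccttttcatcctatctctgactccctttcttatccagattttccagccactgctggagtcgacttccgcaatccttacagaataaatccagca
Mmp13: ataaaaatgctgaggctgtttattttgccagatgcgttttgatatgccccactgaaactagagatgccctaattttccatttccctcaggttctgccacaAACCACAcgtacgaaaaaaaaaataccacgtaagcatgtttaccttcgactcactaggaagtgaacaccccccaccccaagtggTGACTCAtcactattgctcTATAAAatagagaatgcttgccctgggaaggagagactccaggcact
Ccn2: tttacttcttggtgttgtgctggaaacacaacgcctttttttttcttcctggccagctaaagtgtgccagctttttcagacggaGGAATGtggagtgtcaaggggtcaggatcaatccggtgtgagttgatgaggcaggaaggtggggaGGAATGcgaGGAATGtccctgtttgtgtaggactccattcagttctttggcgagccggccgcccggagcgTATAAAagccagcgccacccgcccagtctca

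In these windows Ctsk had 1 match to CATGTG, on the minus strand 151 bases before the start, and no TATA box match. Other forms of the E-box were not searched for. Mmp13 had a RUNX match 150 bases, an AP-1 match 66 bases and a TATA box match 47 bases before the start. Ccn2 held 3 TEAD matches, at 166, 101 and 92 bases, with a TATA box match at 31 bases. A match describes the letters of the window and no binding was measured here.

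**Figure D3:**
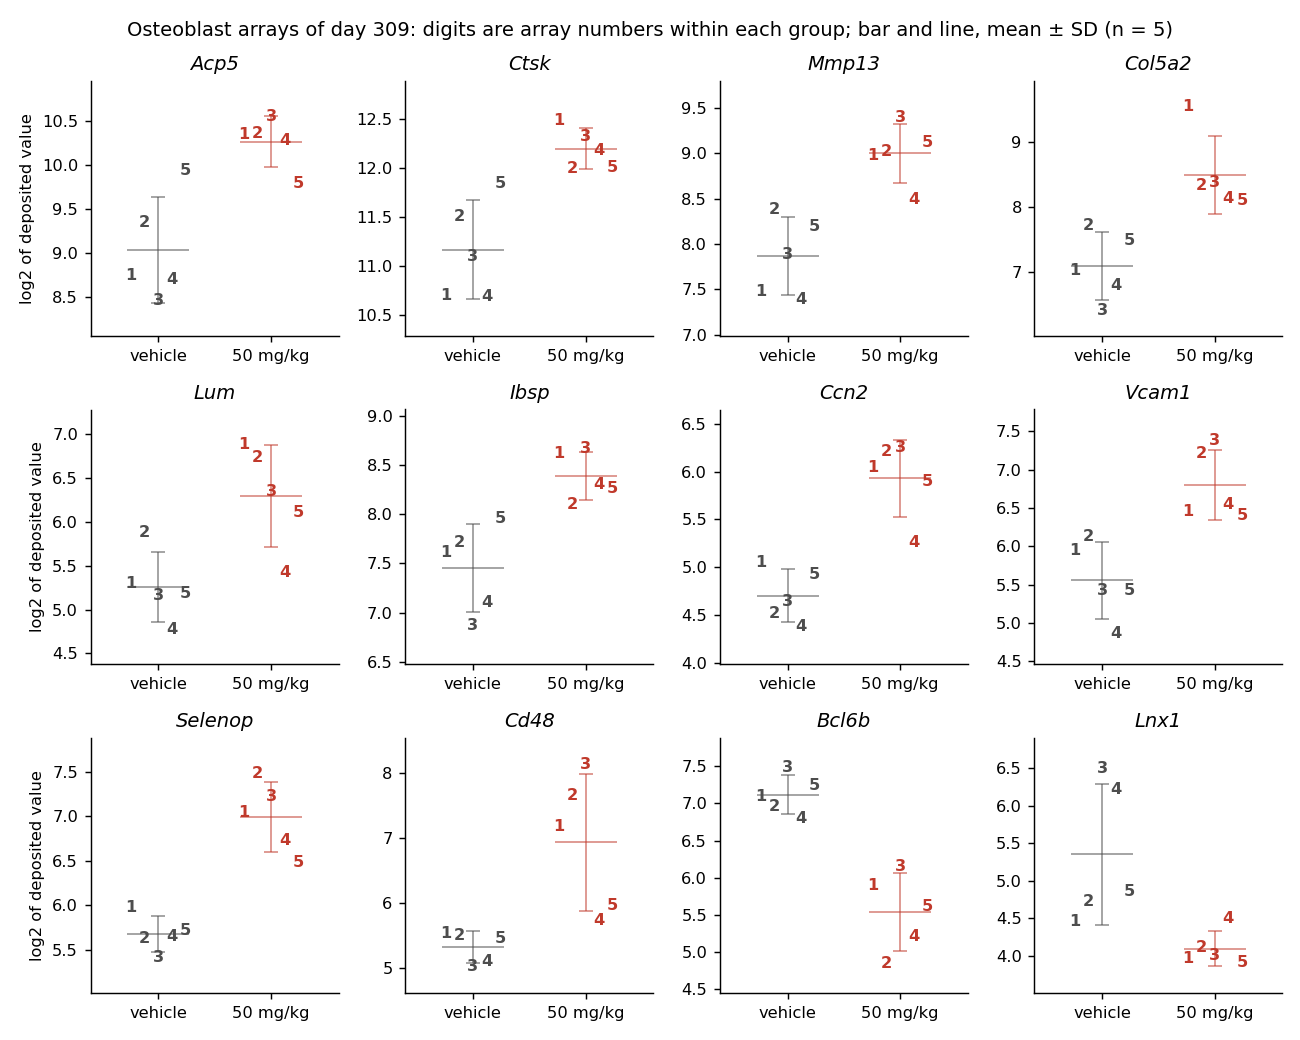
Log2 deposited values of 12 genes in the 5 vehicle (grey) and 5 treated (red) arrays, each digit being the array's number in its group; the bar and line are the mean ± SD (n = 5). Acp5, Ctsk, Mmp13, the matrix genes and Ccn2 sit higher in treated arrays, Cd48 is raised in treated arrays 1 to 3 (7.17, 7.64 and 8.13) with arrays 4 and 5 near vehicle, and Lnx1 is high in vehicle arrays 3 and 4 (6.50 and 6.22).

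Of 30 bone matrix genes tested, 4 were called higher (Col5a2, Lum, Ibsp, Col6a3) and none lower, where 8.63% of all genes were called higher. Of the 30 differences 25 were above 0, as were 63.3% over all genes, and the median was 0.44 against 0.10. After quantile normalization of the 97 arrays 2 of the 30 were called (Lum, Col6a3) and the median was 0.23 against 0.00. In the 10 arrays alone none of 27 passed.

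Col5a2, a chain of type V collagen, which sets the width of type I fibrils, was at 7.02, 7.72, 6.41, 6.79 and 7.48 in vehicle arrays and at 9.54, 8.33, 8.38, 8.12 and 8.09 in treated arrays. Treated array 1 stood above the other treated arrays, and every treated array was above every vehicle array. Col5a2 rose by 1.41 ± 0.39 (adjusted p = 0.0138), and both of its probe sets did so, at 1.41 and 1.32. Its call was lost after quantile normalization of the 97 arrays (1.07, adjusted p = 0.08) and without treated array 1 (1.15, adjusted p = 0.0689), vehicle array 3 (adjusted p = 0.0923) or vehicle array 4 (adjusted p = 0.0568).

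Lum, lumican, a small leucine-rich proteoglycan of collagen fibrils, was at 5.30, 5.88, 5.16, 4.77 and 5.18 in vehicle arrays and at 6.88, 6.73, 6.35, 5.42 and 6.10 in treated arrays. Treated array 4 fell among the vehicle arrays and the other 4 lay above them. Lum rose by 1.04 ± 0.23 (adjusted p = 0.00215) and by 0.84 after quantile normalization of the 97 arrays (adjusted p = 0.0114). Ibsp, bone sialoprotein, which nucleates mineral, was at 7.61, 7.71, 6.87, 7.10 and 7.95 in vehicle arrays and at 8.62, 8.10, 8.66, 8.30 and 8.26 in treated arrays. The groups did not overlap, Ibsp rose by 0.94 ± 0.28 (adjusted p = 0.0209), and after quantile normalization of the 97 arrays its difference of 0.62 did not pass (adjusted p = 0.169). Leaving out vehicle array 3 or 4 or treated array 1 or 3 also ended its call. Col6a3, a chain of type VI collagen, rose by 0.74 ± 0.23 (adjusted p = 0.0253) and by 0.79 after quantile normalization (adjusted p = 0.0245), with no overlap of the groups, and its call ended when its probe sets were averaged and without vehicle array 3 or 4 or treated array 3.

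The abundant matrix genes did not pass. Col1a2 was at 11.37, 11.96, 11.24, 11.58 and 11.98 in vehicle arrays and at 12.80, 12.02, 12.05, 12.61 and 12.50 in treated arrays. The groups were apart, but the difference of 0.77 ± 0.37 did not pass (adjusted p = 0.167). Col1a1 differed by 0.49 ± 0.41 (adjusted p = 0.45), Sparc, osteonectin, by 0.81 ± 0.37 (adjusted p = 0.143), and osteocalcin (Bglap) by 0.42 ± 0.38 (adjusted p = 0.502). The other probe set of Sparc, the brighter one on these 10 arrays, differed by 0.38. Those of Col1a1 and Col1a2 differed by 0.76 and 0.97. Col11a1, a minor fibrillar collagen chain, differed by 1.16 ± 0.43 (adjusted p = 0.0677), and Cthrc1, a secreted collagen triple helix repeat protein, by 0.80 ± 0.36 (adjusted p = 0.13). Spp1 (osteopontin), Omd (osteomodulin), Thbs4 (thrombospondin 4) and Postn (periostin) differed by 0.45, 0.49, 0.52 and 0.32, with adjusted p between 0.265 and 0.604. Alpl, the alkaline phosphatase that clears pyrophosphate, was below 0, at -0.49 ± 0.22 (adjusted p = 0.137). Its treated arrays 1 to 3 stood at 5.12, 5.51 and 4.79 and treated arrays 4 and 5 at 6.12 and 6.35, against 5.78 to 6.61 in vehicle arrays.

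Enzymes that modify procollagen were called higher in 3 of 22 cases (8.63% of all genes), with a median of 0.12, and none passed after quantile normalization of the 97 arrays, where the median was -0.00. Plod2, the lysyl hydroxylase of the collagen telopeptides, was at 6.42, 6.61, 6.24, 6.06 and 6.63 in vehicle arrays and at 7.29, 6.73, 7.56, 7.50 and 7.17 in treated arrays. The groups did not overlap and Plod2 rose by 0.86 ± 0.24 (adjusted p = 0.014). P4ha1 and P4hb, the subunits of prolyl 4-hydroxylase, rose by 0.74 ± 0.23 (adjusted p = 0.0283) and 0.46 ± 0.16 (adjusted p = 0.0493). Leaving out vehicle array 3, vehicle array 4 or treated array 3 ended the call of each of these 3 genes. Lox, lysyl oxidase, which starts the cross-links, differed by 0.13 ± 0.25 (adjusted p = 0.784).

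Among osteoblast differentiation genes 4 of 21 were higher (Cdh11, Bmp2, Atf4, Slc20a1) and none lower, against 8.63% higher among all genes, with a median of 0.32. After quantile normalization of the 97 arrays 2 were higher (Cdh11, Bmp2) and the median was 0.25. Cdh11, osteoblast cadherin, was at 4.30, 4.62, 3.53, 3.51 and 4.20 in vehicle arrays and at 5.40, 5.51, 5.50, 4.96 and 4.87 in treated arrays. That probe set put all treated arrays above all vehicle arrays, at 1.22 ± 0.22 (adjusted p = 0.00075), whereas the 2 other probe sets listed for Cdh11 differed by -0.18 and 0.09, so its probe sets disagreed. Bmp2, a ligand that drives osteoblast differentiation, was at 3.47, 3.65, 3.10, 3.20 and 3.89 in vehicle arrays and at 4.49, 4.38, 4.97, 4.14 and 4.12 in treated arrays. No value overlapped, and Bmp2 rose by 0.96 ± 0.24 (adjusted p = 0.00706) and by 1.0 after quantile normalization of the 97 arrays (adjusted p = 0.0102). Its call ended without vehicle array 3 or treated array 3.

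Atf4, the stress-responsive transcription factor that osteoblasts need for amino acid import, rose by 0.56 ± 0.14 (adjusted p = 0.00811), and Slc20a1, a phosphate transporter, by 0.67 ± 0.21 (adjusted p = 0.0308). Neither passed after quantile normalization of the 97 arrays. Twist1, a repressor of osteoblast maturation, differed by 0.45 ± 0.32 (adjusted p = 0.361). Of the osteocyte genes, Dmp1, a mineral regulator, differed by 0.80 ± 0.41 (adjusted p = 0.194) and Mepe by 0.28 ± 0.49 (adjusted p = 0.761). Only Gja1 of 13 tested osteocyte markers was called, where 8.63% of all genes were called higher.

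Genes of the Wnt pathway were tested in 3 lists. None of 8 antagonist and feedback genes and none of 11 receptors, ligands and anchors passed, with medians of 0.01 and -0.05, where 10.6% of all genes were called. With lists this short and that background, a count of 0 is no result about them. The antagonists nearest to the threshold were Wif1, a secreted Wnt binder, at 0.32 (adjusted p = 0.159), and Sfrp2, a secreted frizzled-like protein, at -0.23 (adjusted p = 0.272). Of the receptor group these were the receptor Fzd4 at 0.32 (adjusted p = 0.202) and the ligand Rspo1 at -0.30 (adjusted p = 0.149). Wif1 was above the array median on none of these 10 arrays, and it was tested because the filter counts all 97. Of other genes described below, Plaur, Psmc6 and Mb were above it on 2, 4 and 1 of the 10. Cul4a, Ids, Slbp and Taar1, named among the flagged results at the end, were above it on 2, 3, 3 and 3. Axin2, a direct target and feedback gene, Sost and Phex did not reach the filter's 5 of the 97 arrays and were not tested.

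Of 15 Wnt target genes, Ccn2 and Gja1 were higher and Plaur was lower (8.63% and 1.92% of all genes), and the median was 0.25. Ccn2, connective tissue growth factor, a matricellular protein, was at 5.04, 4.52, 4.64, 4.38 and 4.93 in vehicle arrays and at 6.04, 6.21, 6.25, 5.26 and 5.90 in treated arrays. The groups did not overlap, and Ccn2 rose by 1.23 ± 0.26 (adjusted p = 0.00162), by 1.10 in the 97 quantile-normalized arrays (adjusted p = 0.00443) and by 1.10 in the 10 alone (adjusted p = 0.0204). Its promoter is the one with 3 TEAD matches above. Gja1, connexin 43, the gap junction protein of osteoblasts and osteocytes, rose by 0.71 ± 0.22 (adjusted p = 0.0272) on the deposited scale only, and Plaur, the urokinase receptor, fell by 0.58 (SE 0.16, adjusted p = 0.0143) and by 0.55 after quantile normalization of the 97 arrays (adjusted p = 0.0314). Vehicle arrays 3 and 4 held the highest Plaur values, 3.78 and 4.25, against 2.78 to 3.20 in treated arrays. The targets Lef1, Myc and Ccnd1 differed by 0.18, 0.25 and 0.37, with adjusted p of 0.677, 0.352 and 0.152.

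Among 11 osteoclast regulators Vcam1 and Cxcl12 were higher and Tnf was lower (8.63% and 1.92% of all genes), with a median of -0.04. Vcam1, an adhesion molecule that osteoclast precursors bind, was at 5.95, 6.13, 5.42, 4.86 and 5.42 in vehicle arrays and at 6.46, 7.21, 7.39, 6.55 and 6.40 in treated arrays. All treated arrays were above all vehicle arrays, and Vcam1 rose by 1.24 ± 0.27 (adjusted p = 0.00215) and by 1.0 in the 97 quantile-normalized arrays (adjusted p = 0.00961). Cxcl12, the chemokine of marrow stroma and osteoblasts, rose by 0.47 ± 0.16 (adjusted p = 0.0462), a call that ended in 7 of 10 fits without 1 array and after quantile normalization of the 97 arrays (0.34, adjusted p = 0.19). Tnf, an inflammatory cytokine that promotes osteoclasts, was at 3.72, 3.80, 4.93, 4.38 and 4.51 in vehicle arrays and at 3.67, 3.63, 3.47, 3.57 and 3.75 in treated arrays. It fell by 0.65 on the log2 scale (SE 0.17, adjusted p = 0.0102) and by 0.69 after quantile normalization of the 97 arrays (adjusted p = 0.0168), with its highest vehicle value on array 3, and without that array or treated array 3 the call ended. Tnfsf11 (RANKL) and its decoy receptor Tnfrsf11b (osteoprotegerin) were above the array median on none of the 10 arrays and did not pass the filter. In the TGF-beta and BMP list 2 of 22 were higher (8.63% of all genes), Bmp2 and the receptor Tgfbr1 (0.67 ± 0.18, adjusted p = 0.0118), and both passed after quantile normalization of the 97 arrays. Among insulin-like growth factors and their binding proteins none of 11 passed, where 10.6% of all genes were called, so this count is no result about them. Igfbp2 and Igfbp5 differed by -0.48 (adjusted p = 0.0826) and -0.61 (adjusted p = 0.204). The other probe sets listed for Igfbp5 differed by -0.20, -0.59, -0.01 and -1.17.

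The largest rises came from other genes, several with a common pattern over the arrays. Cd48, an adhesion receptor of blood cells, was at 5.52, 5.51, 5.02, 5.09 and 5.46 in vehicle arrays and at 7.17, 7.64, 8.13, 5.72 and 5.97 in treated arrays. Treated arrays 1 to 3 stood well above vehicle and treated arrays 4 and 5 just above it. Cd48 rose by 1.61 ± 0.31 (adjusted p = 0.000986) and by 1.37 after quantile normalization of the 97 arrays (adjusted p = 0.00251). Rbm3, a cold-inducible RNA-binding protein, was at 6.71, 6.61, 4.81, 5.77 and 6.14 in vehicle arrays and at 7.95, 8.02, 8.42, 6.57 and 6.63 in treated arrays, a rise of 1.51 ± 0.32 (adjusted p = 0.00187). Cpox, an enzyme of heme synthesis, was at 4.78, 4.49, 4.26, 4.80 and 4.63 in vehicle arrays and at 6.34, 6.35, 6.97, 5.22 and 5.35 in treated arrays, a rise of 1.45 ± 0.27 (adjusted p = 0.000766). In both genes treated arrays 4 and 5 were again the lowest treated arrays, and for Rbm3 they lay within the vehicle range.

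The same order held for Rc3h2, a protein that marks messenger RNA for decay, Mfsd14b and Etnk1, an ethanolamine kinase, which rose by 1.43, 1.36 and 1.29. Dctn5, a dynactin subunit, and Tfdp1, a partner of E2F factors, rose by 1.31 and 1.29. For Dctn5 and Tfdp1 treated arrays 1 to 3 lay between 6.23 and 8.39 and treated arrays 4 and 5 between 5.56 and 7.26. Arsb, a lysosomal sulfatase, did not follow this order: treated arrays 1 to 5 stood at 7.24, 6.36, 7.04, 7.24 and 6.31 and vehicle arrays at 5.06 to 6.08, a rise of 1.30 ± 0.30 (adjusted p = 0.00318). The signal range was widest in treated arrays 1 to 3 (3.43 to 3.67) and narrower in arrays 4 and 5 (3.21 and 3.29), so it moved with most of these values, and with it as a covariate none of them passed. Arsb, Rbm3, Cpox, Rc3h2, Mfsd14b, Etnk1, Dctn5 and Tfdp1 all passed after quantile normalization of the 97 arrays, with adjusted p between 0.000766 and 0.0137.

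The largest falls showed the reverse picture in the vehicle arrays. Lnx1, a ubiquitin ligase, was at 4.46, 4.72, 6.50, 6.22 and 4.86 in vehicle arrays and at 3.96, 4.12, 4.01, 4.49 and 3.91 in treated arrays. Vehicle arrays 3 and 4 stood well above the other vehicle arrays, and 1 treated array reached the lowest vehicle array. Lnx1 fell by 1.25 on the log2 scale (SE 0.23, adjusted p = 0.00075), and without both of these arrays its difference was -0.58 (adjusted p = 0.375). Asphd1, Gnal (a G protein subunit), Bend7 and Apol9a (an apolipoprotein L) also had vehicle arrays 3 and 4 highest. Their differences were -1.18, -0.93, -0.86 and -0.94, with adjusted p between 0.000986 and 0.00511. Klc3, a kinesin light chain, fell by 1.11 (SE 0.30, adjusted p = 0.0115), with vehicle arrays 3 and 4 at 6.17 and 6.67 and the others between 4.76 and 5.67. Lnx1 fell by 1.42 after quantile normalization of the 97 arrays (adjusted p = 0.00075), where Asphd1, Gnal, Bend7, Apol9a and Klc3 passed with adjusted p between 0.000935 and 0.00984.

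Other falls were spread over the arrays. Aqp5, a water channel of secretory epithelium, was at 3.90, 4.07, 4.54, 4.32 and 3.57 in vehicle arrays and at 3.35, 3.10, 3.19, 3.14 and 3.48 in treated arrays, with no overlap. It fell by 0.83 (SE 0.16, adjusted p = 0.000986). Cdhr2, a cadherin of epithelial microvilli, lay between 4.71 and 4.97 in vehicle arrays and between 3.68 and 4.63 in treated arrays, and fell by 0.82 (SE 0.19, adjusted p = 0.00408). C4bpa, a complement inhibitor, had its highest vehicle values on arrays 1 and 2, at 5.10 and 4.60, and fell by 1.0 (SE 0.28, adjusted p = 0.0143). Without treated array 1 or 2 its call was lost. Aqp5, Cdhr2 and C4bpa fell by 0.86, 0.89 and 0.98 after quantile normalization of the 97 arrays (adjusted p = 0.000935, 0.00462 and 0.0283).

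In lists of growth and protein handling, quantile normalization removed most calls of the deposited scale, where 8.63% of all genes were called higher and 1.92% lower. Of 43 cell cycle genes 9 were higher and none lower, with a median of 0.34, and 3 of them (Ect2, Ccna2, Mcm4) passed after quantile normalization of the 97 arrays, with a median of 0.08. Ccna2, cyclin A2, was at 5.23, 5.23, 4.43, 4.59 and 4.68 in vehicle arrays and at 6.09, 6.25, 6.28, 5.27 and 5.55 in treated arrays. The groups did not overlap, and Ccna2 rose by 1.06 ± 0.23 (adjusted p = 0.00196). Ect2, an exchange factor for cytokinesis, rose by 1.26 ± 0.26 (adjusted p = 0.00162), the helicase subunit Mcm4 by 0.80 ± 0.19 (adjusted p = 0.0044) and the replication factor Cdc45 by 0.70 ± 0.18 (adjusted p = 0.00684). Mki67, the marker of dividing cells, rose by 0.56 ± 0.16 (adjusted p = 0.0142) and was not called after quantile normalization (0.31, adjusted p = 0.179).

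Proteasome subunit genes were higher in 8 of 35 cases and lower in none, with a median of 0.33. After quantile normalization of the 97 arrays 2 of the 35 passed, Psmc6 and Psma3, and the median was 0.10. Psmd14, the deubiquitinase of the lid, rose by 0.71 ± 0.18 (adjusted p = 0.00892), the ATPase subunit Psmc6 by 0.68 ± 0.19 (adjusted p = 0.0133), and the core subunits Psma3 and Psma6 by 0.64 ± 0.19 (adjusted p = 0.0208) and 0.59 ± 0.19 (adjusted p = 0.0327). Secretory pathway genes were higher in 6 of 35 cases and lower in none, with a median of 0.36, and none passed after quantile normalization of the 97 arrays, where the median was 0.08. Ssr3, a subunit of the translocon-associated complex, was at 7.67, 7.44, 6.69, 6.95 and 7.57 in vehicle arrays and at 7.96, 8.04, 8.44, 7.77 and 8.09 in treated arrays. Its groups were apart, and it rose by 0.80 ± 0.19 (adjusted p = 0.00542). Hspa5 (BiP), the chaperone of the endoplasmic reticulum, rose by 0.63 ± 0.17 (adjusted p = 0.011), and Tmed2, a vesicle cargo receptor, by 0.62 ± 0.17 (adjusted p = 0.0138).

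Mitochondrial respiratory chain genes had 5 of 68 higher and 1 lower (Ndufb8), with a median of 0.21 that turned to -0.05 after quantile normalization of the 97 arrays, where none passed. Atp5pb, a stalk subunit of ATP synthase, rose by 0.85 ± 0.23 (adjusted p = 0.0115) and Ndufs1, a complex I subunit, by 0.77 ± 0.21 (adjusted p = 0.0133). Ribosome biogenesis genes had 3 of 35 higher (Ncl, Nop16, Utp3), with a median of 0.20, and none after quantile normalization of the 97 arrays, with a median of -0.00. The shares called in these lists, 5 of 68 and 3 of 35, were near or below the 8.63% of all genes. Nucleolin (Ncl) rose by 0.65 ± 0.21 (adjusted p = 0.0313). None of 41 cytosolic ribosomal protein genes passed, with medians of 0.09 and -0.06 on the 2 scales. In the glycolysis list 1 of 17 was higher, Pfkp, a phosphofructokinase (0.90 ± 0.26, adjusted p = 0.0161), which did not pass after quantile normalization of the 97 arrays (0.59, adjusted p = 0.115). That count too is below the share of all genes.

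Stress lists gave single genes, where 8.63% of all genes were called higher and 1.92% lower. With lists this short and that background, the counts below are no result about the lists. Of 15 p53 targets Ccng1, cyclin G1, rose by 0.97 ± 0.25 (adjusted p = 0.00892) and Ei24, an endoplasmic reticulum protein, by 0.52 ± 0.15 (adjusted p = 0.0165), and both passed after quantile normalization of the 97 arrays. Of 24 immediate early and heat shock genes 3 were higher: Klf4, a transcription factor (0.72 ± 0.17, adjusted p = 0.0052), Hspd1, the mitochondrial chaperonin (0.66 ± 0.16, adjusted p = 0.00525), and Ier5. After quantile normalization of the 97 arrays Klf4 passed (0.76, adjusted p = 0.00521), while Hspd1 (0.38, adjusted p = 0.08) and Ier5 (0.43, adjusted p = 0.0814) did not. None of 19 interferon response genes passed, and the one nearest to the threshold was Ifit3, at 0.64 ± 0.23 (adjusted p = 0.0573). Mcl1, a survival factor of the Bcl2 family, was at 6.23, 6.08, 5.76, 5.83 and 6.16 in vehicle arrays and at 7.01, 7.60, 7.55, 6.66 and 6.57 in treated arrays. No value overlapped, and Mcl1 rose by 1.06 ± 0.18 (adjusted p = 0.00075) and by 0.78 after quantile normalization of the 97 arrays (adjusted p = 0.00384).

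Markers of other cells gave 2 calls besides the osteoclast enzymes, where 8.63% of all genes were called higher and 1.92% lower. With lists this short and that background, these counts are no result about the lists. Mrc1, the mannose receptor of resident macrophages, rose by 0.72 ± 0.19 (adjusted p = 0.0108), 1 of 15 macrophage markers. Its call ended after quantile normalization of the 97 arrays (0.41, adjusted p = 0.126) and without vehicle array 3, vehicle array 4 or treated array 3. Emcn was 1 of 17 endothelial markers. Among 16 erythroid, 11 granulocyte, 9 B-lineage, 15 T and natural killer cell, 17 adipocyte, 13 megakaryocyte, 8 chondrocyte and 10 skeletal muscle markers none passed. Among them were Slc4a1, the red cell anion exchanger, which differed by 0.60 (adjusted p = 0.0588), Ms4a1, the B cell protein CD20, at 0.70 (adjusted p = 0.0525), Matn1, a cartilage matrilin, at -0.32 (adjusted p = 0.151), and Mb, myoglobin, at -0.39 (adjusted p = 0.0946). Chondrocyte and muscle markers had medians of -0.31 and -0.23 on the deposited scale, and -0.28 and -0.26 after quantile normalization. The mean level of the macrophage list was 7.98 in vehicle and 8.18 in treated arrays (exact permutation p = 0.0476, adjusted over 13 lists 0.165). The difference of 0.19 turned to -0.03 after quantile normalization of the 97 arrays.

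**Figure D4:**
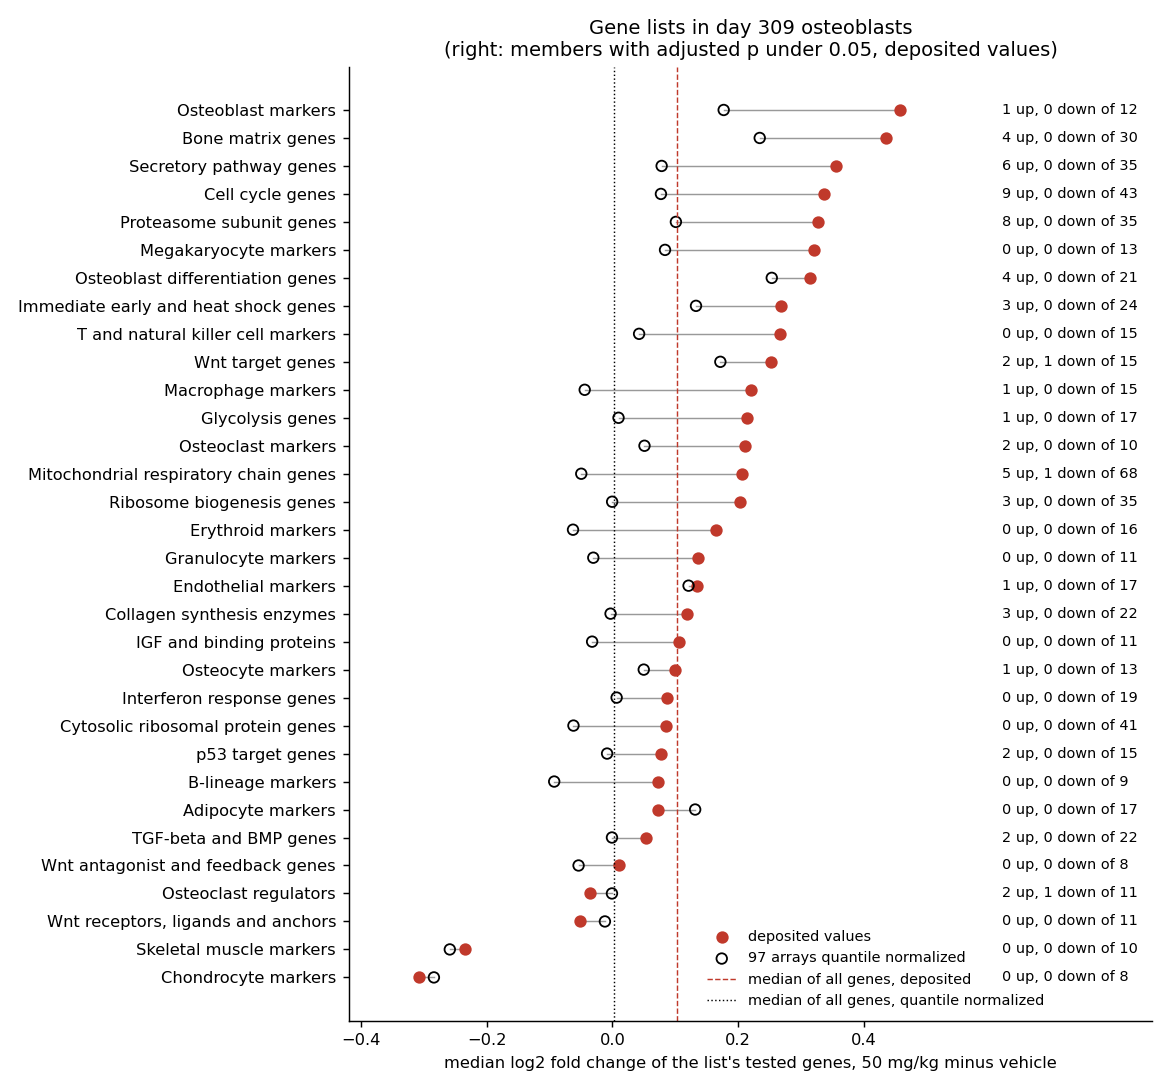
Median log2 fold change (50 mg/kg minus vehicle) of the tested genes of 32 lists, on the deposited scale (filled) and after quantile normalization of the 97 osteoblast arrays (open); dashed and dotted lines give the median of all genes, 0.10 and 0.00. Bone matrix genes (0.44 and 0.23) and osteoblast differentiation genes (0.32 and 0.25) stay right of both lines, while mitochondrial genes (0.21 and -0.05) cross; the right column counts members called.

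The earlier days of the same dose had other rats and other vehicle arrays: day 183, the last day of dosing (5 and 5 arrays), and day 237, 54 days later (5 vehicle and 4 treated arrays). Day 183 gave 505 calls (4.42%), 373 higher (3.27%) and 132 lower (1.16%), and day 237 gave 1227 (10.7%), 343 higher (3%) and 884 lower (7.74%). Tested against the response of day 237, that of day 309 differed in 2963 genes (25.9%), 2206 higher (19.3%) and 757 lower (6.63%). Against day 183 it differed in 88 genes (0.771%), 43 higher (0.377%) and 45 lower (0.394%). The signal range moved with these directions: its mean was 2.68 in vehicle and 2.88 in treated arrays on day 183, 3.44 and 3.22 on day 237, and 3.08 and 3.41 on day 309. With the signal range as a covariate 386 genes passed for day 309 against day 237, and without the day 309 vehicle arrays 3 and 4 the number was 1426. After quantile normalization of the 97 arrays it was 2334 (20.4%), with 1307 higher (11.4%) and 1027 lower (8.99%). On that scale day 237 itself gave 986 calls (8.63%), 379 higher (3.32%) and 607 lower (5.32%). Day 183 gave 723 (6.33%), 389 higher (3.41%) and 334 lower (2.92%), and day 309 against day 183 gave 161 (1.41%), 76 higher (0.665%) and 85 lower (0.744%).

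Osteoclast enzymes differed between day 309 and day 183. Ctsk was at 11.46 ± 0.45 in vehicle and 10.50 ± 0.60 in treated arrays on day 183 (SD, n = 5), where it fell by 0.96 (SE 0.29, adjusted p = 0.034), and it rose on day 309. The difference of the responses was 1.99 ± 0.41 (adjusted p = 0.0085), and it passed in all 28 alternatives run, between 1.70 and 2.18. For Acp5 the responses were -0.36 on day 183, 0.65 on day 237 and 1.23 on day 309. Its difference between day 309 and day 183 was 1.59 (adjusted p = 0.032) and passed in 17 of 28 alternatives. On day 237 Ctsk differed by 0.66 (adjusted p = 0.15), and neither enzyme's response differed between day 309 and day 237 (0.37, adjusted p = 0.54 for Ctsk, and 0.57, adjusted p = 0.3 for Acp5) by this test. Mmp13 differed by 0.15 on day 183 and 0.21 on day 237, and its differences of responses, 0.99 (adjusted p = 0.2) and 0.92 (adjusted p = 0.062), did not pass.

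Other genes changed direction between day 237 and day 309. Vcam1 was at 7.23 ± 0.24 in vehicle arrays (n = 5) and 5.58 ± 0.63 in treated arrays (n = 4) on day 237, a fall of 1.65 on the log2 scale (adjusted p = 0.00015), against the rise of 1.24 on day 309. The difference was 2.89 (adjusted p = 4.8e-07) and passed in all 28 alternatives. Selenop fell by 1.10 on day 237 (adjusted p = 0.0028) and its difference was 2.41 (adjusted p = 6.8e-07). Cd48, Rbm3 and Ccna2 differed by 3.08, 3.01 and 2.21, each lower on day 237 (-1.48, -1.50 and -1.16) and higher on day 309. B-lineage and macrophage markers moved in the same direction on the deposited scale. On day 237 B-lineage markers were lower in 3 of 9 cases (median -0.61, none of the 9 above 0) and macrophage markers lower in 3 and higher in 1 of 15 (median -0.33), where 7.74% of all genes were called lower. Their differences between the days were higher in 3 of 9 and 6 of 15 cases (19.3% of all genes). Among lists going the other way on day 237 were megakaryocyte, granulocyte and chondrocyte markers. They were higher in 4 of 13, 2 of 11 and 2 of 8 cases (3% of all genes) and lower in none, with medians of 0.55, 0.15 and 0.30. The part of any of these cells in the differences above was not tested. Ccn2 differed by -0.47 on day 237 (adjusted p = 0.26), and its difference of responses was 1.70 (adjusted p = 0.00043), lost with the signal range as covariate.

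Of 30 bone matrix genes the difference between these days was higher in 8 and lower in 2 (19.3% and 6.63% of all genes), and on day 237 itself 2 were higher and 5 lower, with a median of 0.06. Bglap fell by 1.45 on day 237 (adjusted p = 0.013), from 10.05 ± 0.43 in vehicle to 8.61 ± 1.36 in treated arrays, and its difference between the days was 1.87 (adjusted p = 0.0085). That call ended after quantile normalization, with the signal range as covariate, without both vehicle arrays 3 and 4, and without day 237 treated array 4 (1.37). Omd fell by 1.01 on day 237 (adjusted p = 0.021), with a difference of 1.50 (adjusted p = 0.0048), lost with the signal range as covariate. The response of Selenop also differed from that of day 183, by 1.61 (adjusted p = 0.0087). Lnx1, Asphd1 and Apol9a differed in the other direction, by -1.70, -1.69 and -1.54 (adjusted p = 0.0074, 0.0074 and 0.0087).

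The 2 other cell types captured on day 309 had their own vehicle arrays, cut from the same rats. The labels do not tie arrays to rats, so the tests between cell types treat the arrays as independent, with no block for the rat. Lining cells gave 66 calls (0.528%), 15 higher (0.12%) and 51 lower (0.408%), and osteocytes 2044 (16.3%), 705 higher (5.64%) and 1339 lower (10.7%). The response of osteoblasts minus that of lining cells passed in 1405 genes (11.2%), 1101 of them higher (8.8%) and 304 lower (2.43%) in osteoblasts. Minus that of osteocytes it passed in 3411 (27.3%), 2340 higher (18.7%) and 1071 lower (8.56%). With the signal range as covariate these numbers were 150 and 1452. After quantile normalization within each cell type they were 930 (578 higher, 352 lower) and 2747 (1396 higher, 1351 lower). Leaving out treated lining cell array 5 left 600 of the first.

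Acp5 differed by 1.01 in lining cells (adjusted p = 0.13) and rose by 0.99 in osteocytes (adjusted p = 0.019), and the osteoblast response did not pass against either (0.22 and 0.24, adjusted p = 0.81 and 0.74). Ctsk differed by 0.91 in lining cells (adjusted p = 0.084) and 0.40 in osteocytes (adjusted p = 0.33), and again the differences of 0.12 and 0.63 did not pass. Bcl6b was lower in all 3 cell types, by -1.57 in osteoblasts, -1.70 in lining cells (adjusted p = 0.0013) and -1.41 in osteocytes (adjusted p = 0.00091), read from the same probe set.

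Rbm3 fell by 1.67 in lining cells (adjusted p = 0.001) and by 2.31 in osteocytes (adjusted p = 4.8e-09), against its rise in osteoblasts, with differences of 3.18 and 3.82. Mcl1 fell in both (-0.93 and -1.51), with differences of 1.999 and 2.57. Rc3h2 fell by 1.29 in lining cells, with a difference of 2.72. Cpox, Hipk1, a nuclear kinase, and Ccna2 fell by 1.80, 2.34 and 1.73 in osteocytes, with differences of 3.26, 3.28 and 2.79. Mepe and Alpl went the other way. Mepe rose by 2.83 in osteocytes (adjusted p = 5.8e-06), a difference of responses of -2.56 (adjusted p = 0.0035). Alpl rose by 1.13 in osteocytes (adjusted p = 9.5e-05), with a difference of -1.62 (adjusted p = 4.3e-05). Each of these differences passed in all 28 alternatives run. Leaving out both osteoblast vehicle arrays 3 and 4 of day 309 was not among them. The difference for Bglap, -0.48, did not pass (adjusted p = 0.56).

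Markers of some other cells moved with the osteocyte changes. In osteocytes 29 of 43 cell cycle genes were lower and none higher (median -0.84), where 10.7% of all genes were called lower. Erythroid markers were lower in 11 of 16 cases (median -0.79), granulocyte markers in 5 of 11 (median -0.57) and megakaryocyte markers in 6 of 13 (median -0.41), and none was higher. Skeletal muscle markers were higher in 10 of 18 cases and bone matrix genes in 13 of 30 (5.64% of all genes), with none lower. The part of marrow and muscle RNA in the differences between osteoblasts and osteocytes was not tested.

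**Figure D5:**
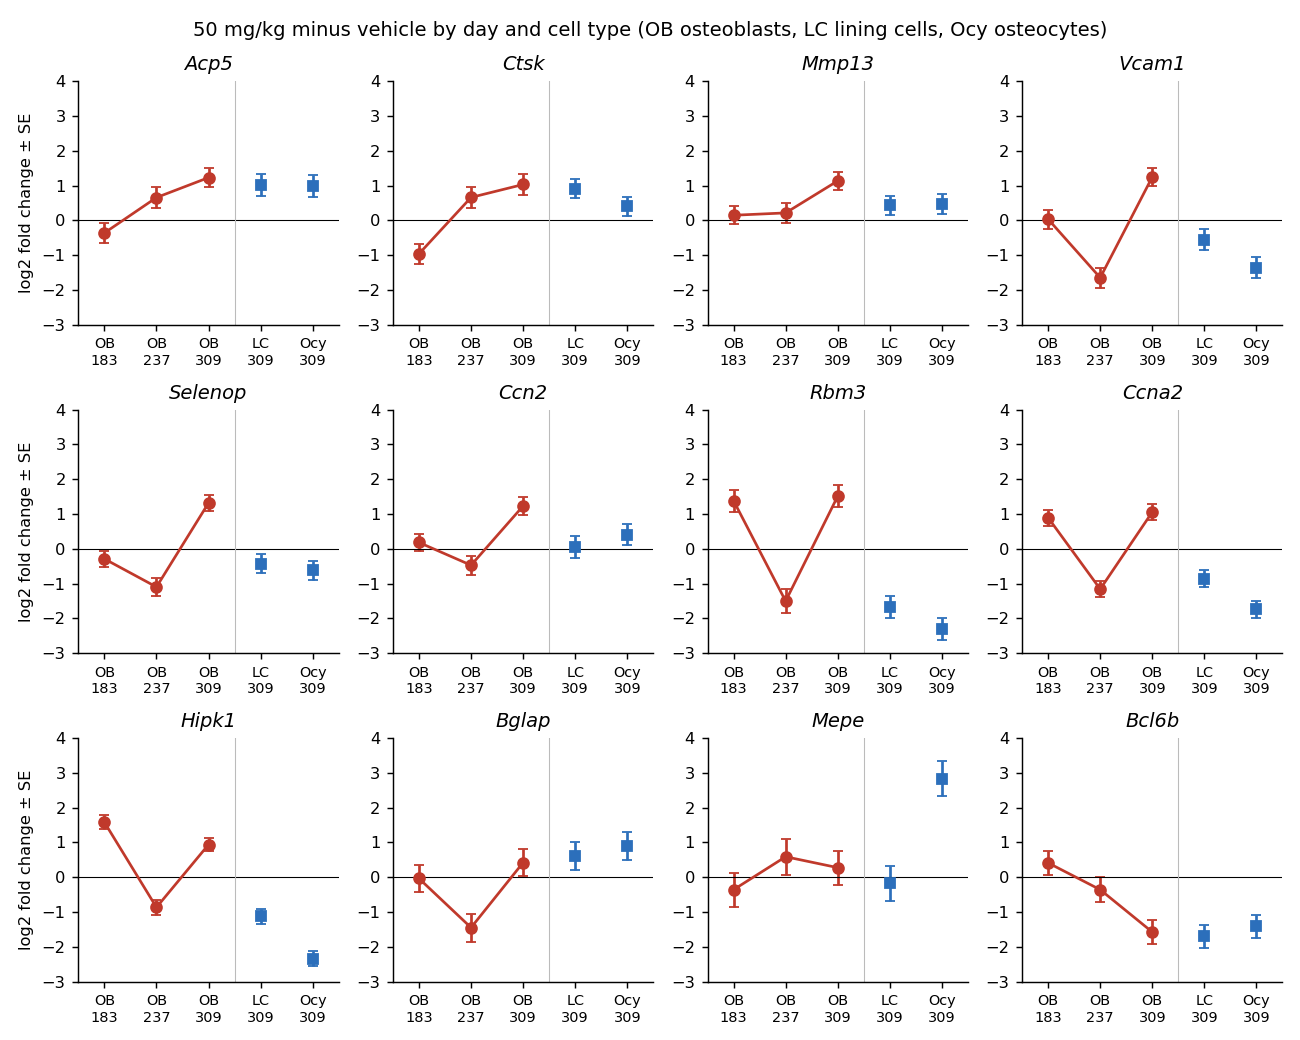
Log2 fold change (50 mg/kg minus vehicle) ± SE of 12 genes in osteoblasts (OB) on days 183, 237 and 309 (red) and in lining cells (LC) and osteocytes (Ocy) on day 309 (blue); each point compares groups of 4 or 5 arrays. Ctsk moves from -0.96 on day 183 to 1.03 on day 309, Vcam1 and Selenop are lower on day 237 and higher on day 309, and Rbm3 and Hipk1 are lower in both other cell types.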

How the data were processed

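The deposited values are array intensities on a linear scale. Per the submitters' processing notes, Affymetrix Expression Console, RMA, R 3.0.1 and affy 1.38.1 were used, and the sources used here do not give their order and settings. These intensities were deposited by the authors for 31042 probe sets, of which 20826 were paired with 1 gene, 436 with several and 9780 with none. The log2 of each value was taken. For each of 14217 genes the probe set of highest mean was used, and a gene was tested where it was above the array median on at least 5 arrays of the fit.

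Differences were tested with limma 3.58.1 (lmFit and eBayes, R 4.3.3, statmod 1.5.0), with p-values adjusted by Benjamini-Hochberg over all genes tested and a threshold of 0.05. The fit held 97 osteoblast arrays in 20 groups (11420 genes). Cell types were compared in a fit of 294 arrays in 60 groups (12507 genes). Quantile normalization was run over the 97 arrays and, for the 10 arrays, alone (9660 genes). All p-values given as adjusted come from limma unless an exact permutation test is named. An array's signal range, its median and the mean level of marker lists were compared by exact two-sided permutation tests. The scripts were tested on simulated data. No pair of the 10 arrays held identical values. The number of arrays limits the precision.

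The named genes were the 12 largest rises and falls with all 5 treated arrays on one side of the vehicle mean, up to 4 called members of each of 32 lists (852 genes) or the 2 of smallest p where none was called, the genes called in the 10 quantile-normalized arrays, up to 4 genes by p of each difference of responses, and fixed genes of bone; a part of them is printed. Mmp13 was named after its values were seen, as were members of a list named only to say which were called. The arrays, lists and genes were chosen with earlier results of these data known. Alternatives were other filters, probe set means, array weights, covariates (signal range, marrow score), median centring, the groups compared alone, and each array left out.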

Additional observations from a re-analysis of the deposited data

Results flagged for a closer look

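Single arrays stood apart from the 4 others of their group, by the gap to the nearest array as a share of the range, in 6 of 206 groups of 5 values; chance gives about 1 in 20. On the log2 scale these were treated array 1 for Col5a2 (9.54) and P4hb (10.00), treated array 3 for Bend7 (3.60) and Psma3 (5.17), treated array 4 for Hspa5 (9.15), and vehicle array 1 for Matn1 (4.20).

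The response on day 309 differed from that on day 237 by a test of the difference in 2963 genes. On the log2 scale the difference was 2.89 for Vcam1, 3.08 for Cd48, 3.01 for Rbm3, 2.41 for Selenop, 1.70 for Ccn2, 2.21 for Ccna2, 1.87 for Bglap and 1.50 for Omd. It was 1.85 for Ids, 1.51 for Cul4a, 1.78 for Otud4, 1.80 for Hipk1 and 1.54 for Gng10. Lower on day 309 were Tnks1bp1 (-1.46), Sncb (-1.355) and Samd4b (-1.41).

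Against day 183 the response differed in 88 genes. Higher on day 309 were Ctsk (1.99), Selenop (1.61), Acp5 (1.59), Ikzf5 (1.30) and Taar1 (1.03), and lower were Lnx1 (-1.70), Asphd1 (-1.69), Apol9a (-1.54) and Hepacam (-1.07).

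Between osteoblasts and lining cells of day 309 the response differed in 1405 genes, with Rbm3 (3.18), Rc3h2 (2.72), Usp25 (2.24), Mcl1 (1.999) and Slbp (1.85) higher and Plppr3 (-1.10) lower in osteoblasts. Between osteoblasts and osteocytes it differed in 3411 genes. Rbm3 (3.82), Hipk1 (3.28), Cpox (3.26), Ccna2 (2.79), Mcl1 (2.57) and Mki67 (1.71) were higher, and Mepe (-2.56) and Alpl (-1.62) lower in osteoblasts. The signal range of the arrays also differed between these groups. It was used as a covariate, but where it differs with treatment the 2 cannot be told apart. Its part in these differences was thus not tested.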

How the results depend on the processing

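On day 309, the 1205 calls became 574 after quantile normalization, 21 with the groups compared alone, 774 with array weights, 447 with the marrow score and 0 with the signal range as covariate (1114 genes with unadjusted p under 0.05 by limma). Leaving out 1 array gave 144 (without vehicle array 3) to 1834 (without vehicle array 1), and leaving out both vehicle arrays 3 and 4, an alternative chosen after seeing the data, gave 0 (1060 unadjusted). The 7 calls of the 10 quantile-normalized arrays became 3 with probe sets averaged, 167 with array weights, 78 with trend and robust eBayes, 0 with the signal range (688 unadjusted), 1 without both vehicle arrays 3 and 4, and 2 (without treated array 1) to 271 (without treated array 4) with 1 array left out.

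Day 237 (1227) gave 1894 with weights, 466 with the signal range and 687 (without its vehicle array 4) to 1217 with 1 array left out. Day 183 (505) gave 211 with its groups alone, 1641 with weights, 273 with the signal range and 235 (without its treated array 3) to 868 (without its treated array 5). Day 309 against day 237 (2963) gave 386 with the signal range, 1426 without both vehicle arrays 3 and 4, and 2226 to 3305 with 1 array left out. Day 309 against day 183 (88) gave 161 after quantile normalization, 6 with the groups alone, 164 with weights and 23 (without day 309 vehicle array 3) to 133 (without day 309 vehicle array 1). Against lining cells (1405) the counts were 930 after quantile normalization, 269 with the groups alone, 622 with weights, 150 with the signal range and 600 to 1848; against osteocytes (3411) they were 1452 with the signal range and 2432 to 3994. The cause of these moves was not tested. The difference in signal range, 0.33, was 0.34 with the 95th percentile (exact permutation p = 0.0476).

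Among 2095 gene values under alternatives 1708 kept their side of the threshold and 3 reversed, all of Mepe, which was never called: -0.041 with array weights, -0.13 with the signal range and -0.24 without both vehicle arrays 3 and 4. Of 1090 differences of responses 1066 kept their call and 24 lost it. Vehicle and treated arrays came from different rats, so their comparison holds no pairs. Between cell types no pairing by rat was possible, because the labels do not name the rat.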
